A study of Homo sapiens with 18 samples.

Results

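The genes described here encode the enzymes and regulators of cholesterol and fatty acid synthesis. They are a list of 34 human genes, set by their roles in these pathways with earlier results of these data known, and matched from symbol to Ensembl gene identifier. Of these, 33 were matched among the 63677 gene identifiers of each count table, and all 33 passed the filter on low counts. ACACA, which encodes acetyl-CoA carboxylase alpha, was not matched and has no value here.

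RNA sequencing was done in the human pancreatic cancer cell lines PANC1, COLO357 and SUIT2, transfected for 48 h with small interfering RNA (siRNA). KMT2C and KMT2D, the genes targeted, encode enzymes that methylate histone H3 at enhancers. In each line 1 library had Control siRNA, 2 had a KMT2D siRNA (numbered siRNA1 and siRNA2) and 3 had a KMT2C siRNA (numbered siRNA1 to siRNA3), which made 18 libraries in all. Every library, controls included, came from transfected cells, and no untransfected library was used. The numbers name different siRNAs, so KMT2D siRNA1 and KMT2C siRNA1 are unrelated.

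Cholesterol is built from acetyl-CoA through mevalonate, squalene and lanosterol, and fatty acids are built from acetyl-CoA that ATP citrate lyase releases from citrate. The transcription factors SREBP1 and SREBP2 (genes SREBF1 and SREBF2) drive most genes of both pathways. They are made as membrane precursors: when sterols are scarce, SCAP carries them to the Golgi, where the site-1 and site-2 proteases (MBTPS1 and MBTPS2) release the active part, and when sterols are plentiful, INSIG1 and INSIG2 hold SCAP back in the endoplasmic reticulum.

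Total counts on genes ranged from 14205640 to 32115894 read pairs per library. Levels are CPM, each count scaled to the total of its library over the genes kept by the filter, adjusted by that library's normalisation (TMM) factor. KMT2D mRNA stood at 79.9%, 43.5% and 34.8% of the own line's control with KMT2D siRNA1 in PANC1, COLO357 and SUIT2, and at 84.7%, 45.5% and 65.8% with KMT2D siRNA2. KMT2C mRNA stood at 43.2% to 62.8% of control with KMT2C siRNA1, at 62.6% to 116% with siRNA2 and at 64.1% to 82.1% with siRNA3. The library labelled PANC1 KMT2C siRNA2 thus went against its label, and its KMT2D mRNA was 372% of control. KMT2D mRNA was also 128% and 158% of control with KMT2C siRNA2 in COLO357 and SUIT2. In PANC1, COLO357 and SUIT2 it was 156%, 208% and 149% with KMT2C siRNA3 and 115%, 124% and 99.1% with KMT2C siRNA1. KMT2C mRNA was 138%, 92.7% and 94.4% of control with KMT2D siRNA1. Of the epithelial markers, KRT8, KRT18 and KRT19 were between 154 and 3050 CPM in all libraries, but PANC1 was low in KRT7, EPCAM and CDH1, with 1.91 to 20.1 CPM. Leukocyte markers stayed at or under 0.725 CPM and PECAM1 was 0 in all libraries. Of the fibroblast and endothelial markers, COL1A1 reached 179 CPM (PANC1) and 148 CPM (COLO357), and CDH5 reached 27.9 CPM (COLO357). Their summed levels were 2.55 to 59.0 CPM in control, 1.19 to 179 CPM in KMT2D and 2.51 to 150.0 CPM in KMT2C libraries for the 4 fibroblast markers, and 0 to 6.13, 0 to 5.08 and 0.0411 to 28.3 CPM for the 3 endothelial markers. The part of these markers in the results was not tested.

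Per kilobase of exon, the members with the highest median level over the 18 libraries were SCD, the desaturase that makes oleic acid, at 104 CPM per kilobase, ACSL3, which activates fatty acids to acyl-CoA, at 66.1, and ACLY, the ATP citrate lyase, at 59.4. The lowest were MBTPS2 at 2.32, CYP51A1, the lanosterol demethylase, at 2.49, and INSIG2 at 2.84. These lengths are from GENCODE v29 and set only the order of levels between genes. All other levels below are CPM of 1 gene across libraries, and all differences are log2.

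The first question was how each siRNA changed these genes against control. The fit held cell line and siRNA as terms, so each siRNA had 3 libraries, 1 per line, and all 5 siRNAs were compared with the same 3 control libraries. Calls were made over the 21028 genes tested, at the adjusted p threshold of 0.05. In these bulk samples, fewer cells of a kind and less RNA per cell cannot be told apart. Of the 33 members, 23 were called in at least 1 of the 5 comparisons with control, against 15.9% of all genes. In the map of changes by library, 24 members were above control with KMT2D siRNA1 in PANC1, 12 in COLO357 and 24 in SUIT2, against 7, 8 and 2 members with KMT2D siRNA2. The median change over all genes was 0.0 to 0.01 in these libraries.

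**Figure D1:**
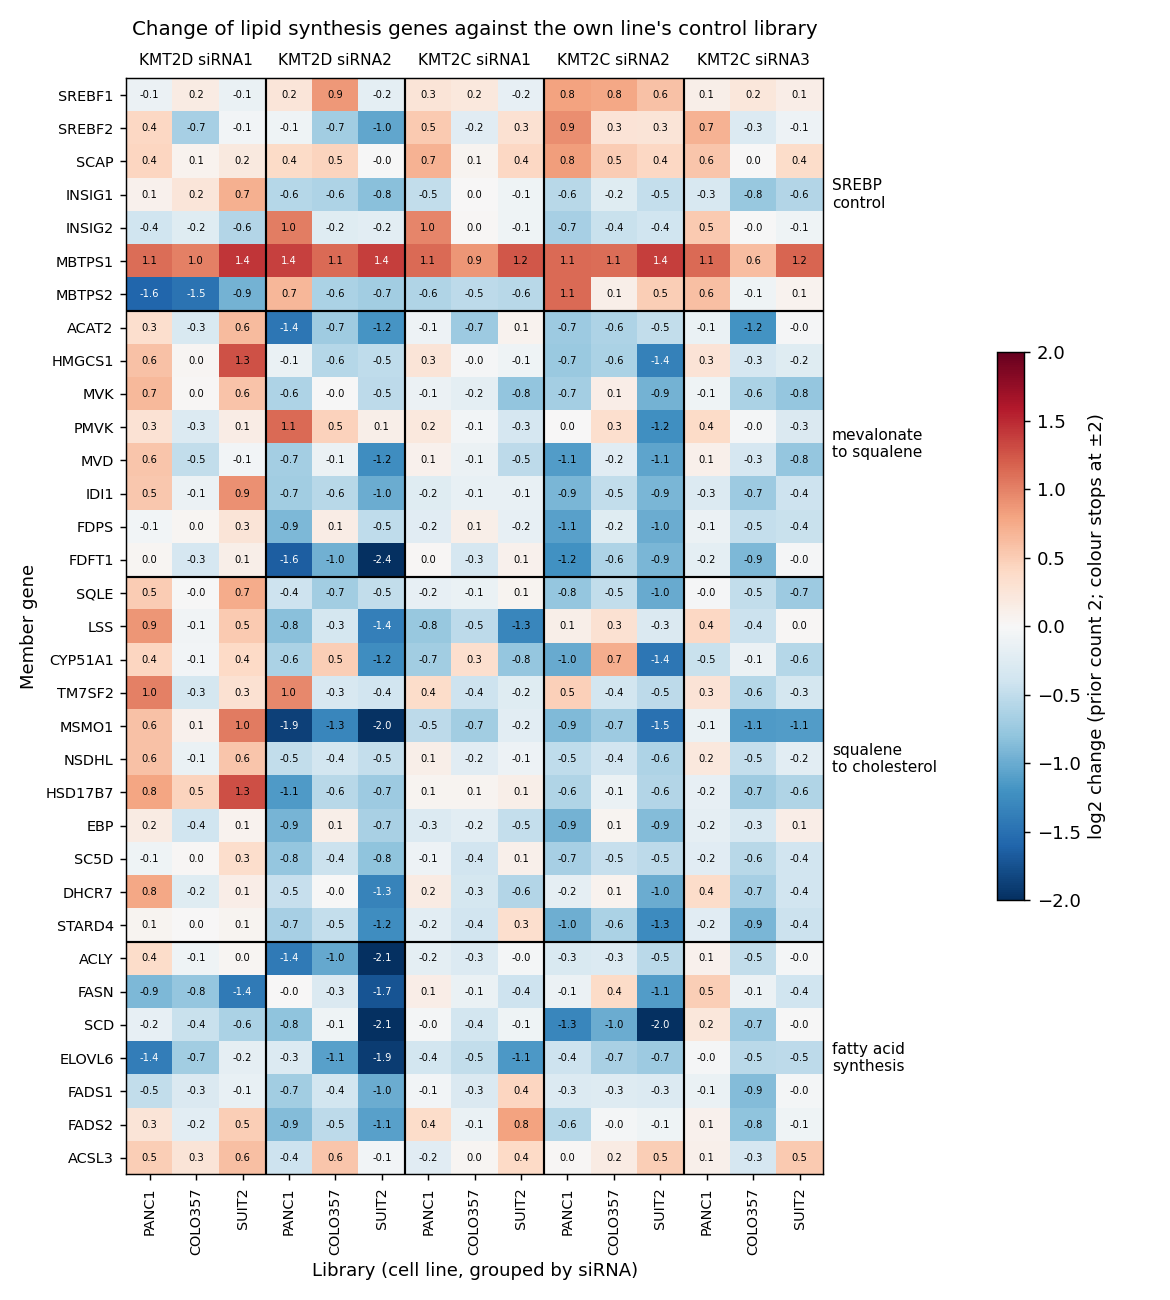
Log2 change of each of the 33 members (rows, grouped by role) in the 15 knockdown libraries (columns, cell lines grouped by siRNA) against that line's control, with a prior count of 2 and colour stopping at ±2. The KMT2D siRNA2 columns are mostly blue, with 26, 25 and 31 members below control in PANC1, COLO357 and SUIT2, and the MBTPS1 row is red in all 15 libraries.

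KMT2D siRNA2 lowered genes of every stage, from acetyl-CoA to cholesterol and fatty acids. It lowered 14 members and raised 1, against 4.94% of all genes called lower, 3.98% called higher and 8.92% called in all. The members' median difference from control was -0.62, against 0.02 over all genes. In the libraries themselves, 22 of the 33 members were below control in all 3 lines, against 18.8% of all genes.

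MSMO1 (ENSG00000052802), the sterol C4 methyl oxidase, fell most among the members. Its level was 149, 184 and 146 CPM in the PANC1, COLO357 and SUIT2 controls and 40.9, 74.4 and 37.0 CPM with KMT2D siRNA2. All 3 siRNA2 libraries lay below all 3 controls, and the difference was -1.68 ± 0.299 (SE, n = 3 libraries; adjusted p = 0.00194, edgeR's quasi-likelihood test). ACLY (ENSG00000131473) stood at 342, 503 and 305 CPM in the controls and at 128, 248 and 69.6 CPM with siRNA2, again without overlap (-1.46 ± 0.203, adjusted p = 5.47e-05). FDFT1 (ENSG00000079459), the squalene synthase that commits farnesyl units to sterols, went from 105, 220 and 158 CPM to 33.2, 114 and 30.6 CPM (-1.55 ± 0.298, adjusted p = 0.00345). The COLO357 siRNA2 library for FDFT1 was above the PANC1 control, but each line was below its own control.

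Of the 8 genes from acetyl-CoA to squalene, 3 fell with KMT2D siRNA2. Beside FDFT1 these were ACAT2, the cytosolic thiolase, at -1.06 ± 0.251 (adjusted p = 0.0109), and IDI1, the isopentenyl diphosphate isomerase, at -0.73 ± 0.200 (adjusted p = 0.0213). HMGCS1, the HMG-CoA synthase, gave 105, 303 and 141 CPM in the controls and 95.3, 203 and 98.9 CPM with siRNA2, and its difference of -0.41 ± 0.234 was not called (adjusted p = 0.325). Of the 11 genes from squalene to cholesterol and sterol transfer, 5 fell: MSMO1, LSS, the lanosterol synthase (-0.82), HSD17B7, a 3-keto sterol reductase (-0.80), SC5D, the sterol C5 desaturase (-0.66), and STARD4, which carries cholesterol between membranes (-0.77). ACAT2 overlaps TCP1 by 397 exon bases on the opposite strand, and LSS, IDI1, HMGCS1, STARD4, FDFT1 and SREBF2 overlap noncoding RNA genes on the opposite strand. SREBF1 overlaps RAI1 by 556 exon bases, and MVK, named below, overlaps MMAB by 306, also on the opposite strand. HSD17B7 has 2 pseudogenes. Reads of such pairs may have been shared, since no source used here gives the strand setting of the counting.

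Among the 7 fatty acid genes, 4 fell with KMT2D siRNA2. Beside ACLY these were ELOVL6, which elongates palmitate (-1.17 ± 0.298, adjusted p = 0.0182), and the desaturases of polyunsaturated fatty acids FADS2 (-0.78) and FADS1 (-0.66), which share 490 exon bases on opposite strands. The fall of ELOVL6 rested on COLO357, with 126 CPM in control and 59.3 with siRNA2, and SUIT2, with 172 and 46.0, because PANC1 had only 2.64 and 2.17 CPM. Of the 7 control genes of the SREBP system, INSIG1 fell (-0.67 ± 0.174, adjusted p = 0.0161), SREBF2 fell (-0.62 ± 0.188, adjusted p = 0.0399), and MBTPS1 rose (1.29 ± 0.142, adjusted p = 2.43e-06). The calls of MBTPS1, ACLY, MSMO1 and FDFT1 held without each of the 18 libraries in turn. The count of 15 dropped to 8 without the control of PANC1, 6 without that of COLO357, 7 without that of SUIT2, 6 without PANC1 KMT2D siRNA2 and 4 without SUIT2 KMT2D siRNA2, so the other 11 calls each depended on at least 1 of these libraries.

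KMT2D siRNA1 gave another picture, with 2 members higher and 2 lower than control, against 1.84% of all genes called higher, 2.18% called lower and 4.02% called in all. HSD17B7 (ENSG00000132196) rose from 23.3, 14.9 and 17.6 CPM to 40.5, 20.3 and 43.1 CPM (0.88 ± 0.216, adjusted p = 0.0191). FASN (ENSG00000169710), the fatty acid synthase, fell from 319, 544 and 520 CPM to 171, 319 and 195 CPM (-1.07 ± 0.262, adjusted p = 0.0266). The COLO357 siRNA1 level of FASN equalled the PANC1 control, but every line was below its own control.

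MBTPS2 (ENSG00000012174), the site-2 protease, fell with KMT2D siRNA1 from 14.2, 28.8 and 29.1 CPM to 4.63, 10.3 and 15 CPM (-1.29 ± 0.267, adjusted p = 0.00592). PANC1 and COLO357 changed by more than 1 on the log2 scale, and SUIT2 by less. MBTPS2 shares 1093 exon bases with YY2 on the same strand, so its counts are uncertain. Without PANC1 KMT2D siRNA1 the MBTPS2 call was lost (adjusted p = 0.053), and the count of 4 dropped to 1; it dropped to 2 without the SUIT2 control and to 2 without SUIT2 KMT2D siRNA1. The calls of FASN and HSD17B7 were each lost without SUIT2 KMT2D siRNA1 (adjusted p = 0.102 and 0.23), without the SUIT2 control (0.184 and 0.108) and without PANC1 KMT2D siRNA1 (0.13 and 0.0591), that of FASN also without COLO357 KMT2D siRNA1 (0.0596), and that of HSD17B7 also without the PANC1 or the COLO357 control (0.0572 and 0.0557). The members' median with siRNA1 was 0.18, against 0 over all genes, and 23 of 33 had a positive difference, against 10600 of all 21028 genes. By library the members' median was 0.36 in PANC1 and 0.26 in SUIT2, but -0.11 in COLO357, where 21 of 33 were below control.

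The 2 KMT2D siRNAs were compared directly, with the control libraries in the fit but not in the contrast. With siRNA1, 15 members were higher than with siRNA2 and 1 was lower, against 5.72% of all genes called higher, 5.63% called lower and 11.3% called in all. The members' median difference was 0.76, against -0.01 over all genes. In the libraries, 17 of the 33 members were higher with siRNA1 than with siRNA2 in all 3 lines, against 19.7% of all genes. This comparison and that of siRNA2 with control share the siRNA2 libraries.

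MSMO1 differed most: siRNA1 gave 223, 196 and 300 CPM, and siRNA2 gave 40.9, 74.4 and 37.0 CPM. Every siRNA1 library was above every control and every siRNA2 library below every control, and the difference between the siRNAs was 2.30 ± 0.306 (adjusted p = 0.000127). HSD17B7 gave 40.5, 20.3 and 43.1 CPM with siRNA1 and 10.5, 10.1 and 10.5 CPM with siRNA2 (1.69 ± 0.223, adjusted p = 2.09e-05). ACLY gave 438, 475 and 314 CPM with siRNA1, close to its controls, and 128, 248 and 69.6 CPM with siRNA2 (1.57 ± 0.204, adjusted p = 2.09e-05). Neither HSD17B7 nor ACLY overlapped between the siRNAs.

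By role, 5 of the 8 genes from acetyl-CoA to squalene were higher with KMT2D siRNA1 than with siRNA2: FDFT1 (1.5), ACAT2 (1.29), IDI1 (1.23), HMGCS1 (1.12) and the mevalonate kinase MVK (0.83). HMGCS1 gave 157, 312 and 341 CPM with siRNA1, above the control of its line in every case. Of the 11 genes from squalene to cholesterol, 7 were higher, which beside MSMO1 and HSD17B7 were LSS (1.31), the squalene epoxidase SQLE (0.98), STARD4 (0.81), the sterol 4-alpha-carboxylate dehydrogenase NSDHL (0.80) and SC5D (0.76). Among the 7 fatty acid genes ACLY and FADS2 (0.95) were higher, and among the 7 control genes INSIG1 was higher (1.03) and MBTPS2 lower (-1.13 ± 0.270, adjusted p = 0.00812).

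INSIG1 gave 252, 117 and 304 CPM with siRNA1 and 161, 64.2 and 105 CPM with siRNA2, with controls of 239, 98.9 and 185 CPM between them in each line. FASN did not follow: it gave 319, 444 and 158 CPM with siRNA2, and its difference of -0.41 ± 0.260 between the siRNAs was not called (adjusted p = 0.363). SREBF1 gave 34.4, 163 and 72.2 CPM with siRNA1 and 44.4, 265 and 69.3 CPM with siRNA2 (-0.37 ± 0.168, adjusted p = 0.177). SREBF2 gave 48.8, 48.3 and 99.7 CPM with siRNA1 and 34.3, 47.5 and 50.1 CPM with siRNA2 (0.51 ± 0.188, adjusted p = 0.0868). Neither SREBP factor's mRNA was thus called between the KMT2D siRNAs.

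**Figure D2:**
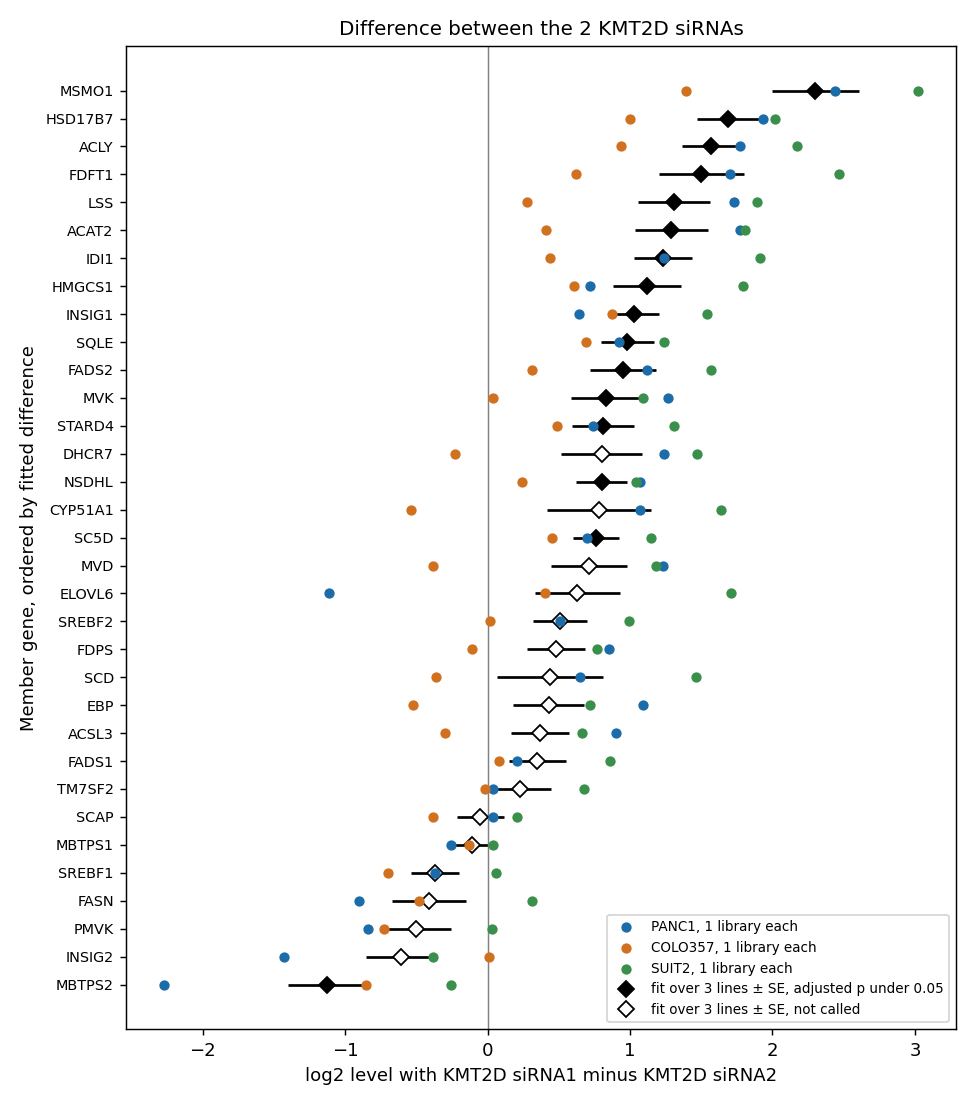
Log2 level with KMT2D siRNA1 minus that with KMT2D siRNA2 for each of the 33 members, with 1 coloured point per cell line and a diamond with its SE for the fit over the 3 lines, black where the adjusted p was under 0.05. The 16 black diamonds run from -1.13 for MBTPS2 to 2.30 for MSMO1, and COLO357 gave 1.39 for MSMO1 where SUIT2 gave 3.02.

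The count of 16 was 13 to 21 without each of the 18 libraries in turn, and 12 calls held without every one of them: ACAT2, ACLY, FDFT1, HMGCS1, HSD17B7, IDI1, INSIG1, LSS, MSMO1, NSDHL, SC5D and SQLE. The other 4 (FADS2, MBTPS2, MVK and STARD4) were each lost without at least 1 PANC1 or SUIT2 library of KMT2D siRNA1 or siRNA2. Without all PANC1 libraries the count was 9, and without all SUIT2 libraries 8. KMT2D mRNA differed by -0.36 ± 0.285 between the same siRNAs (adjusted p = 0.491). KMT2C mRNA was lower with siRNA1 than with siRNA2 (-0.65 ± 0.205, adjusted p = 0.0428), and was 274%, 103% and 150.0% of control in the siRNA2 libraries of PANC1, COLO357 and SUIT2. The part of KMT2C mRNA in the result was not tested.

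The members' promoter sequences were also searched for motifs, and no test was made. RefSeq promoters of GRCh38.p14 were taken from 250 bases before to 50 after the annotated start. Those of 30 of the 34 listed genes were used, ACACA among them. Those of FDFT1, SQLE, FASN and ACAT2 were not searched, so nothing is said of their motifs. On both strands, TCACNCCAC, 1 form of the sterol regulatory element that SREBP binds, was found in 1 of the 30, SREBF2 (3.3%, against 1.39% of the 27305 genes with a promoter used). Other forms of the element were not searched, so a promoter without this match may still hold one. The CCAAT box, the motif of the NF-Y factor that works beside SREBP at many sterol genes, was found in 21 of the 30 (70.0%, against 39.7%). Of the members called in no siRNA comparison, ACSL3, DHCR7, EBP, MVD and TM7SF2 held a CCAAT match, and CYP51A1, INSIG2 and PMVK did not. Of the 11 members called lower with KMT2D siRNA2 and higher with siRNA1 than with siRNA2, 9 had their promoter searched. All 9 hold a CCAAT match, while FDFT1 and ACAT2 of the same set were not searched. This set was chosen after the values were seen. A match describes letters only, and its part in the changes was not tested. Shown are the SREBF2 window with its sterol element and neighbouring CCAAT box, and 5 windows around a CCAAT box from members of that set, each on the strand of its gene and with the motifs in capitals (ATTGG is CCAAT read on the other strand).
SREBF2, chr22:41832947-41833005, plus strand: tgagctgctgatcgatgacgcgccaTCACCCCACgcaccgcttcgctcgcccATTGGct
MSMO1, chr4:165327617-165327657, plus strand: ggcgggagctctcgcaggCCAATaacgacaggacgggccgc
ACLY, chr17:41919023-41919063, minus strand: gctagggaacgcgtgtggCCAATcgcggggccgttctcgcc
IDI1, chr10:1048951-1048991, minus strand: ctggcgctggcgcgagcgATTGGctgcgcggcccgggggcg
INSIG1, chr7:155297690-155297730, plus strand: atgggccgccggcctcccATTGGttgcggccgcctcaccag
LSS, chr21:46228902-46228942, minus strand: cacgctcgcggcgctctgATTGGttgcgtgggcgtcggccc
The motif's first base lies 133 bases before the start for the SREBF2 element, and 34, 23, 87, 170 and 150 bases before it for the boxes of MSMO1, ACLY, IDI1, INSIG1 and LSS. Among the set members not shown, the box nearest the start begins 8 bases after it for HSD17B7 and 5 after it for FADS2. It begins 56 bases before the start for SC5D and 130 before it for STARD4.

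MBTPS1 (ENSG00000140943), the site-1 protease that makes the first cut in the SREBP precursors, was the member that rose with every siRNA. Its level was 82.3, 56.2 and 88.2 CPM in the PANC1, COLO357 and SUIT2 controls. PANC1 knockdown libraries gave 177 to 212 CPM, those of COLO357 86.2 to 124 CPM and those of SUIT2 198 to 238 CPM, so that every one of the 15 was above the control of its line. No other member had this pattern, which 1.38% of all genes showed.

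The differences of MBTPS1 from control were 1.18 ± 0.142 with KMT2D siRNA1 (adjusted p = 1.88e-05), 1.29 ± 0.142 with KMT2D siRNA2, 1.08 ± 0.142 with KMT2C siRNA1 (0.000145), 1.21 ± 0.142 with KMT2C siRNA2 (6.73e-06) and 0.98 ± 0.141 with KMT2C siRNA3 (0.000607). All 5 share the 3 control libraries, and a high level in 15 libraries cannot be told apart from a low level in 3. Between the siRNAs of KMT2D, MBTPS1 differed by -0.11 ± 0.139 (adjusted p = 0.689). Each of the 5 calls held without each of the 18 libraries in turn.

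**Figure D3:**
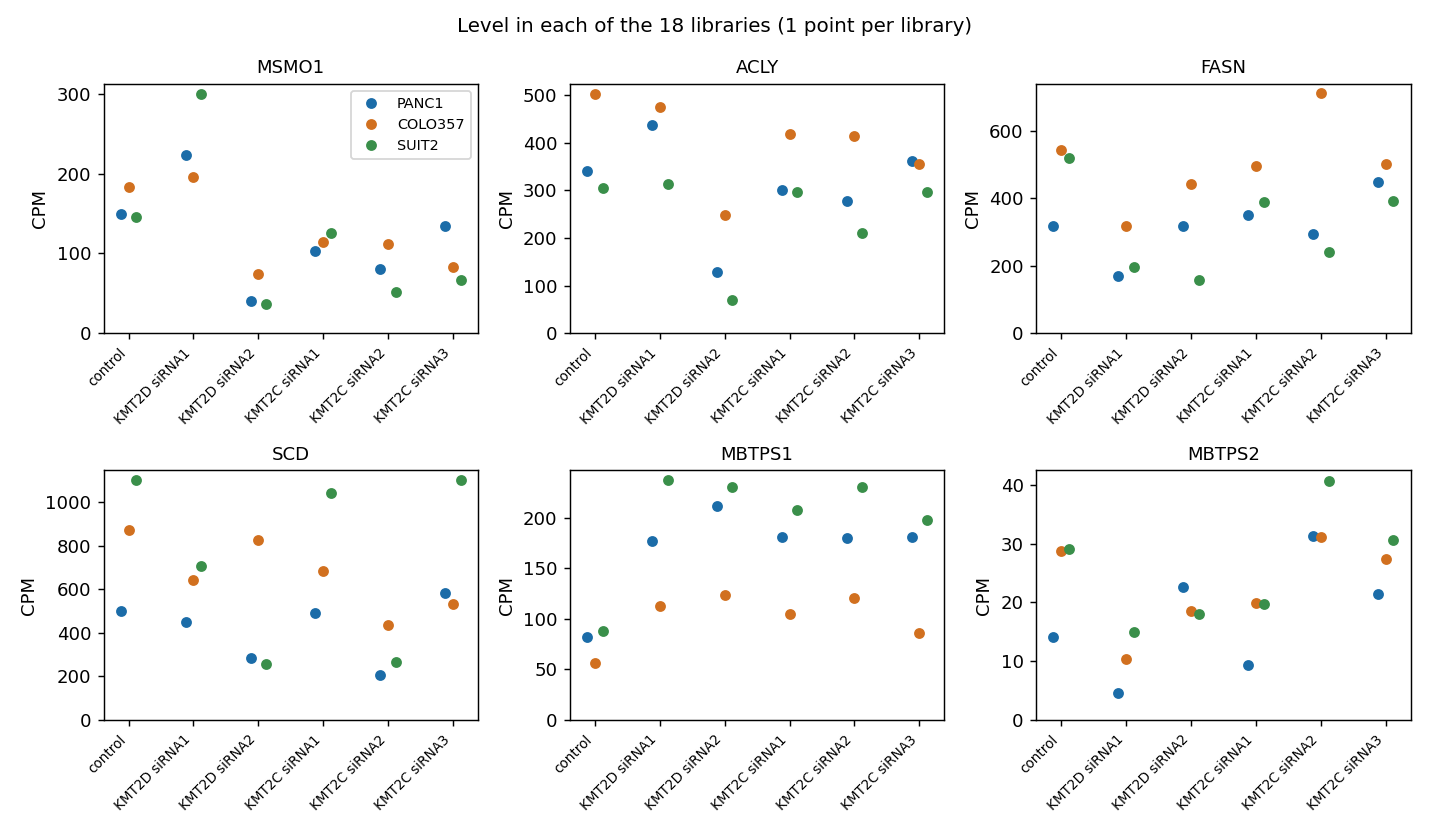
CPM of MSMO1, ACLY, FASN, SCD, MBTPS1 and MBTPS2 in each of the 18 libraries, by siRNA, with 1 point per library coloured by cell line and the vertical axes starting at 0. MSMO1 and ACLY are low with KMT2D siRNA2, and MBTPS1 is lowest in the control library of each line. SCD is low with KMT2C siRNA2 (204, 436 and 267 CPM), and also with KMT2D siRNA2 in PANC1 and SUIT2 (286 and 257 CPM).

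Of the 3 KMT2C siRNAs, siRNA2 changed the most members, with 3 higher and 7 lower than control, against 2.67% of all genes called higher, 3.14% called lower and 5.81% called in all. The members' median difference was -0.46, against 0 over all genes. SCD (ENSG00000099194) had the largest fall, from 501, 873 and 1100 CPM in the controls to 204, 436 and 267 CPM, so that every siRNA2 library lay below every control (-1.43 ± 0.375, adjusted p = 0.0405). SCD has a pseudogene, SCDP1. With KMT2D siRNA2, SCD gave 286, 825 and 257 CPM, below the control of each line, and its difference of -0.86 ± 0.373 was not called (adjusted p = 0.192). SREBF1 (ENSG00000072310) rose from 37.5, 146 and 79.7 CPM to 65.9, 250 and 120 CPM (0.73 ± 0.168, adjusted p = 0.0096). SREBF1 was higher in each line, and over the 3 lines the ranges of siRNA2 and control overlapped.

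Among the genes from acetyl-CoA to squalene, 3 of 8 fell with KMT2C siRNA2: HMGCS1, from 105, 303 and 141 CPM to 62.5, 195 and 55.3 CPM (-0.87 ± 0.236, adjusted p = 0.0311), IDI1 (-0.75) and the farnesyl diphosphate synthase FDPS (-0.75), which has 8 pseudogenes. From squalene to cholesterol, 3 of 11 fell: STARD4 (-0.93 ± 0.219, adjusted p = 0.0113), SQLE (-0.74 ± 0.185, adjusted p = 0.0167) and SC5D (-0.55). SCAP, the SREBP escort, rose (0.58 ± 0.165, adjusted p = 0.0349). SREBF2 gave 69.7, 93.1 and 124 CPM, INSIG1 162, 83.7 and 133 CPM and FASN 293, 713 and 242 CPM with KMT2C siRNA2, and none of these was called (0.47, -0.42 and -0.28, adjusted p = 0.154, 0.165 and 0.621).

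With KMT2C siRNA2, MVD, the mevalonate diphosphate decarboxylase, and CYP51A1 were each at least 1 lower on the log2 scale in 2 of the 3 lines but not called: MVD gave 16.6, 33.8 and 19.8 CPM and CYP51A1 gave 5.55, 15.7 and 3.33 CPM, against 36.1, 39.4 and 41.4 and against 11.2, 9.48 and 9.19 CPM in the controls. COLO357 was the line without such a fall in both genes. CYP51A1 has pseudogenes and overlaps the noncoding gene CYP51A1-AS1 on the opposite strand. Without all COLO357 libraries 16 members were called, without all PANC1 libraries 1 and without all SUIT2 libraries 3. The count of 10 dropped to 3 without the control of PANC1, 4 without that of COLO357 and 3 without that of SUIT2, and to 2 without the library labelled PANC1 KMT2C siRNA2 and to 2 without SUIT2 KMT2C siRNA2, which had 24.99% of its read pairs in no annotated feature; the MBTPS1 call alone held without each library.

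KMT2C siRNA1 and siRNA3 each had 1 member called, MBTPS1, higher in both. Of all genes, 0.694% were called higher, 0.504% lower and 1.2% in all with siRNA1, and 0.48%, 0.143% and 0.623% with siRNA3. Next by p with siRNA1 were LSS (-0.85 ± 0.252, adjusted p = 0.118), SCAP (0.39 ± 0.165, 0.339) and ELOVL6 (-0.70 ± 0.289, 0.34). LSS gave 39.1, 39.1 and 24.5 CPM there, below its controls of 66.2, 56.5 and 60.2 CPM in each line, and it passed the threshold without COLO357 KMT2D siRNA1 (adjusted p = 0.0406). With siRNA3 they were INSIG1 (-0.53 ± 0.174, adjusted p = 0.218), MSMO1 (-0.74 ± 0.293, 0.362) and SC5D (-0.38 ± 0.160, 0.379). MSMO1 gave 135, 83.2 and 67.1 CPM with siRNA3, more than 1 lower on the log2 scale in COLO357 and SUIT2, the lines whose siRNA3 libraries had 30.36% and 22.2% of read pairs in no annotated feature. The part of that share in the result was not tested.

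In the remaining libraries of these siRNAs, SREBF1 gave 45, 169 and 71.5 CPM with KMT2C siRNA1 and 40.4, 171 and 87.5 CPM with siRNA3, and SREBF2 gave 52.1, 65.8 and 127 CPM and 58.9, 62.8 and 96.7 CPM. INSIG1 gave 169, 99.0 and 174 CPM and 192, 58.5 and 124 CPM, and HMGCS1 gave 125, 299 and 134 CPM and 127, 241 and 118 CPM. FASN gave 352, 497 and 390.0 CPM and 449, 501 and 393 CPM. SREBF1, SREBF2, HMGCS1 and FASN had adjusted p-values of 0.8 or more with both siRNAs, and INSIG1 had 0.777 with siRNA1.

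Between the KMT2C siRNAs, siRNA2 was set against the mean of siRNA1 and siRNA3, with the control libraries again in the fit but not in the contrast. It was higher in 2 members and lower in 3, against 2.4% of all genes called higher, 3.11% called lower and 5.51% called in all. SREBF1 (0.60 ± 0.142, adjusted p = 0.0132) and MBTPS2 (0.77 ± 0.220, 0.0442) were higher, and HMGCS1 (-0.85 ± 0.211, 0.0204), SCD (-1.31 ± 0.340, 0.0425) and STARD4 (-0.66 ± 0.195, 0.049) were lower. The members' median was -0.23, against 0.02 over all genes. None of the 5 calls held without every library, and no member was called without the library labelled PANC1 KMT2C siRNA2, nor without SUIT2 KMT2C siRNA2 (0 by edgeR in each case, with 6 and 8 members at an unadjusted p under 0.05). The count was 2 or 3 without any of 9 others, which were each line's control, the PANC1 and COLO357 libraries of KMT2D siRNA1, and the PANC1 and SUIT2 libraries of KMT2C siRNA1 and siRNA3.

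The 2 targets were compared as the mean of the 3 KMT2C siRNAs against the mean of the 2 KMT2D siRNAs. Members higher with KMT2C siRNA numbered 4 and members lower 3, against 7.3% of all genes called higher, 8.06% called lower and 15.4% called in all. SREBF2 (ENSG00000198911) was higher (0.61 ± 0.123, adjusted p = 0.00181): in PANC1, KMT2C libraries gave 52.1 to 69.7 CPM and KMT2D libraries 34.3 to 48.8 CPM, in COLO357 62.8 to 93.1 and 47.5 to 48.3 CPM, and in SUIT2 96.7 to 127 and 50.1 to 99.7 CPM. The targets' ranges did not overlap in PANC1 or COLO357 and overlapped in SUIT2. MBTPS2 (0.80 ± 0.173, adjusted p = 0.00372), FASN (0.70 ± 0.170, 0.0102) and ACLY (0.45 ± 0.130, 0.0207) were also higher, and MVK (-0.47), HMGCS1 (-0.46) and SQLE (-0.35) were lower, with adjusted p-values of 0.0434, 0.0451 and 0.0446.

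The mean over KMT2D siRNAs joins siRNAs that differed in 16 members. ACLY is an example, with 314 to 475 CPM for siRNA1 and 69.6 to 248 CPM for siRNA2. The calls of SREBF2, MBTPS2 and FASN held without each library in turn; ACLY's was lost without COLO357 KMT2D siRNA1, SUIT2 KMT2D siRNA1 or SUIT2 KMT2D siRNA2 (adjusted p = 0.0575, 0.0509 and 0.0727), and those of MVK, HMGCS1 and SQLE were lost without any 1 of 11 or more libraries. The count of 7 dropped to 3 without SUIT2 KMT2D siRNA1, and to 4 without the library labelled PANC1 KMT2C siRNA2, COLO357 KMT2C siRNA1, SUIT2 KMT2C siRNA2 or SUIT2 KMT2C siRNA3.

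In none of these 8 siRNA comparisons were ACSL3, CYP51A1, DHCR7, EBP, INSIG2, MVD, PMVK and TM7SF2 called. Between the KMT2D siRNAs, DHCR7, a reductase at the end of the cholesterol route, was at 0.80 ± 0.285 (adjusted p = 0.0832), where NSDHL had the same difference with an SE of 0.177 and was called, and INSIG2 was at -0.61 ± 0.246 (adjusted p = 0.117). The phosphomevalonate kinase PMVK was at 0.57 ± 0.247 with KMT2D siRNA2 (adjusted p = 0.164), ACSL3 at 0.45 ± 0.203 with KMT2D siRNA1 (0.245), and the sterol isomerase EBP at -0.54 ± 0.249 with KMT2C siRNA2 (0.233). Each of these 5 differences was over 2 SE from 0 but did not pass the adjustment over all genes.

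Whether a target's effect differed between the lines was tested in a fit with a group for each line and target. By edgeR, no member was called for KMT2D or for KMT2C, and 0.0% of all genes were called in both tests. At an unadjusted p under 0.05 there was 1 member for KMT2D, TM7SF2, a sterol C14 reductase, and 0 for KMT2C, and 475 and 469 genes of all tested. DESeq2 called 0 members in both tests, and 4 and 3 genes of all tested. TM7SF2 gave 9.06 CPM in the PANC1 control and 18.2 and 17.7 CPM with the KMT2D siRNAs, while COLO357 gave 25.1, 19.7 and 20 CPM, and SUIT2 gave 22.6, 27.9 and 17.4 CPM. The siRNAs of a target served as replicates in this fit, so the spread between KMT2D siRNA1 and siRNA2 entered its error.

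The lines themselves differed in most members, as in most genes. Over the 6 libraries of each line, 8 members were higher and 16 lower in PANC1 than in COLO357, against 33.8% of all genes called higher, 36.7% called lower and 70.5% called in all. Against SUIT2, PANC1 was higher in 8 and lower in 9, with 32.2%, 31.5% and 63.7% of all genes. COLO357 was higher than SUIT2 in 13 and lower in 7, with 33.2%, 31.0% and 64.1% of all genes. The members' shares called, 72.7%, 51.5% and 60.6%, were near those of all genes or below them.

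ELOVL6 (ENSG00000170522) differed most between lines. Its lowest, median and highest levels of 6 libraries were 0.953, 2.09 and 2.64 CPM for PANC1, 59.3, 83.7 and 126 CPM for COLO357, and 46.0, 112 and 172 CPM for SUIT2. PANC1 lay below COLO357 by a difference of -5.38 ± 0.244 (adjusted p = 4.22e-13) and below SUIT2 by -5.69 ± 0.247 (2.78e-13), while COLO357 and SUIT2 overlapped and were not called apart (-0.31 ± 0.192, 0.165). The mean of FADS2 was 151 ± 45.7 CPM for PANC1 (SD over the 6 libraries of a line, which mix the siRNAs) and 127 ± 25.4 CPM for COLO357, which were not called apart (0.20 ± 0.163, adjusted p = 0.281). SUIT2 was low in FADS2 at 15.4 ± 6.30 CPM, with PANC1 higher by 3.33 ± 0.179 and COLO357 by 3.13 ± 0.179. FADS2 shares 49 exon bases with FEN1 on its own strand. FADS1, its neighbour, followed another order, with 458 ± 83.9 CPM in COLO357, 307 ± 55.1 CPM in PANC1 and 176 ± 52.4 CPM in SUIT2, all 3 called apart.

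Of the control genes, SREBF1 was highest in COLO357 at 194 ± 50.2 CPM, then SUIT2 at 83.4 ± 19.3 and PANC1 at 44.6 ± 11.2 CPM, all 3 called apart. SREBF2 had the order SUIT2, COLO357 and PANC1 at 100.0 ± 27.7, 65.7 ± 17.4 and 50 ± 13.4 CPM, also all called apart, though the ranges of all 3 lines overlapped. INSIG2 was highest in SUIT2 at 47.3 ± 7.05 CPM, against 10.2 ± 1.27 in COLO357 and 7.42 ± 3.49 in PANC1. INSIG1, its relative, was lowest in COLO357 at 86.9 ± 22.5 CPM, with 196 ± 40.1 in PANC1 and 171 ± 72.2 in SUIT2, which were not called apart (0.27 ± 0.123, adjusted p = 0.0609). SCAP gave 45.6 ± 8.62 CPM in PANC1, 43.4 ± 7.29 CPM for COLO357 and 45.4 ± 6.12 CPM for SUIT2 and was not called between any pair, with differences of -0.06 to 0.06.

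The enzymes showed the same mix. ACSL3 was highest in COLO357 at 923 ± 190.0 CPM, with 448 ± 83.1 in SUIT2 and 293 ± 64.0 in PANC1, and NSDHL was highest in PANC1 at 88.1 ± 25.7 CPM, with 44.7 ± 14.0 in SUIT2 and 28.7 ± 3.58 in COLO357. In both genes all 3 lines were called apart. MSMO1, the member that separated the KMT2D siRNAs most, did not differ detectably between lines, at 122 ± 62.8, 127 ± 51.0 and 121 ± 97.5 CPM in PANC1, COLO357 and SUIT2, with adjusted p-values of 0.179 to 0.507. Calls between lines that held without every library numbered 19 of 24, 13 of 17 and 18 of 20 in the order given above.

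**Figure D4:**
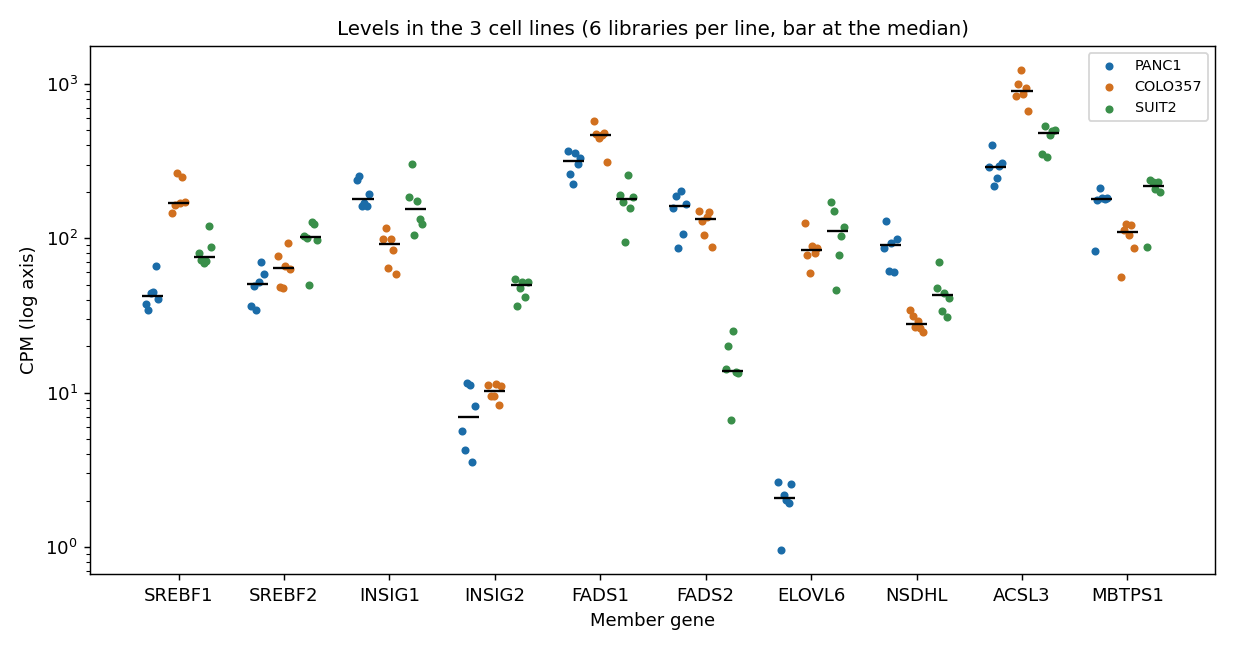
CPM on a log axis of 10 members in the 3 cell lines, with 1 point for each of the 6 libraries of a line and a bar at the median. ELOVL6 is near 2 CPM in PANC1 alone, FADS2 is low and INSIG2 high in SUIT2, and SREBF1 and ACSL3 are highest in COLO357.

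A further 43 lipid genes outside the list were counted for comparison, in an isoprenoid branch, a group for sterol handling and a group for other fatty acid and glycerolipid genes. Unlike those of the members, their calls were not checked by leaving out libraries or by other settings. With KMT2D siRNA2, 7 of the 43 fell and 2 rose (20.9% called, against 8.92% of all genes), and their median was -0.14 where the members' was -0.62. TMEM97, a sterol-responsive membrane protein, fell by 1.64 (SE 0.187, adjusted p = 3.76e-06), LBR, which has sterol C14 reductase activity, by 1.19, ACSL1, an acyl-CoA synthetase, by 1.48, and GPAM, which starts glycerolipid synthesis, by 1.0. The 2 that rose were ABCA1 (1.51 ± 0.308, adjusted p = 0.00363) and ABCG1 (2.21 ± 0.455, 0.0056), the cholesterol export pumps induced by the sterol sensor LXR, named after their values were seen as the only rises. MYLIP, another gene known as an LXR target and also named after its value was seen, fell (-0.74 ± 0.204, adjusted p = 0.0214).

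With KMT2D siRNA1, 3 of the 43 fell and 0 rose (6.98% called, against 4.02% of all genes), with 12 at an unadjusted p under 0.05 in both directions. CPT1A, the gatekeeper of mitochondrial fatty acid oxidation, fell by 2.1 (SE 0.167, adjusted p = 1.16e-07), HSD17B12, an enzyme of fatty acid elongation, by 0.88, and SOAT1, which esterifies cholesterol, by 0.52. Between the KMT2D siRNAs, 8 of the 43 were higher with siRNA1 and 5 lower (30.2% called, against 11.3%): TMEM97 (1.86), ACSL1 (1.53) and LPIN1 (1.25), a phosphatidate phosphatase, were among the higher, and CPT1A (-1.96), ABCA1 (-1.63) and ABCG1 (-2.40) among the lower. ABCA1 and ABCG1 were again named after their values were seen.

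With KMT2C siRNA2, 4 of the 43 rose and 7 fell (25.6% called, against 5.81%). ABCA1 (1.89 ± 0.314, adjusted p = 0.001) was among those that rose, and ELOVL7, an elongase (-1.47), TMEM97 (-1.05) and GGPS1, which makes geranylgeranyl diphosphate (-0.73), among those that fell. With KMT2C siRNA1 GPAM fell (-1.02; 2.33% of the 43 called, against 1.2%). With siRNA3 (4.65% called, against 0.623%), SOAT1 (-1.18) and ERLIN2, an endoplasmic reticulum protein that takes part in sterol-regulated protein degradation (-1.0), fell. Against the mean of siRNA1 and siRNA3, siRNA2 was higher in 5 and lower in 5 (23.3% called, against 5.51%), with ABCA1 (2.41) and ERLIN2 (0.67) higher and ELOVL7 (-1.37) and MYLIP (-0.93) lower. With KMT2C against KMT2D siRNA, 6 were higher and 4 lower (23.3% called, against 15.4%), among them CPT1A (1.13), LBR (0.62), the geranylgeranyl transferase subunit PGGT1B (-0.57) and GGPS1 (-0.51).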

How the data were processed

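Per the labels' protocols, ribosomal RNA was depleted and stranded total RNA libraries were read as paired ends of 100 nt. The submitters' processing notes name FastQC, TopHat2, HTSeq, edgeR and hg19, with no versions. The deposited values are raw read-pair counts for each Ensembl gene, 1 table per library. No source used here gives the annotation release or strand setting. The 5 entries that name no gene (32.98% to 53.39% of read pairs) were left out of all totals and tests. Symbols came by identifier from a name table (52181 of 63677 identifiers, 81.9%).

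From these counts, edgeR 4.0.16 in R 4.3.3 computed quasi-likelihood F tests with TMM factors (0.946 to 1.06), robust dispersions and Benjamini-Hochberg adjustment. The filter by expression (minimum count 10, minimum total 15) kept 21028 genes. The fit held cell line and siRNA over all 18 libraries (10 residual degrees of freedom, common biological coefficient of variation 0.183). The cell line is the block, from the labels: libraries of 1 line were paired across siRNAs. The test between lines used groups of line by target (9 residual degrees of freedom, coefficient 0.253), which takes a line's lone control to vary as other groups do. SEs are the log2 difference over the square root of F. Library changes against control used a prior count of 2. The fit of cell line and siRNA was tested on simulated counts with changes placed in KMT2D siRNA1, and the fit of line by target was not. Each placed change had the same size in every line, so effects that vary between lines were not simulated. The outcome is not reported here.

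The labels name no separate cultures within a line, and each line had 1 library per siRNA. The p-values of the siRNA fit thus rest on how far siRNA effects varied between the 3 lines, together with noise between libraries. That noise may be technical, and the spread between cultures of 1 line was not measured. Samples were randomised into pools that the labels do not name. The members and lists were chosen with earlier results of these data known. Named are members called in any of 13 tests, the 4 with the smallest p in each test of an siRNA against control or between siRNAs of a target, members changed by at least 1 on the log2 scale in the same direction in 2 of 3 lines, and 5 genes in every library (SREBF1, SREBF2, INSIG1, HMGCS1, FASN). Of the other lipid genes, up to 4 called ones by smallest p were named per test. Outside this rule, ABCA1, ABCG1 and MYLIP were named in KMT2D comparisons after their values were seen. Alternatives were DESeq2 1.42.0, its size factors in edgeR, no filter on low counts, no cell line term, and leaving out each library, each line, or libraries with over 20% of read pairs in no annotated feature. Calls of single genes under these alternatives were kept for members only.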

Additional observations from a re-analysis of the deposited data

How the results depend on the processing

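Counts of members called were within 1.5 times the main count in 248 of 312 alternative values, and no named member reversed; 395 of 3032 values of named members were no longer past the threshold and 5 newly passed it. Without the cell line term (no replicate block) the counts were 1 for KMT2D siRNA1 against siRNA2 and 0 for the other 7 siRNA comparisons by edgeR, with 1 to 9 members at an unadjusted p under 0.05 in each; MSMO1 was the call that remained (adjusted p = 0.0278). In the order KMT2D siRNA1, KMT2D siRNA2, KMT2C siRNA1, KMT2C siRNA2 and KMT2C siRNA3 against control, leaving out each library gave 1 to 5, 4 to 18, 1 to 2, 2 to 12 and 1 to 1 members. For KMT2D siRNA1 against siRNA2 it gave 13 to 21, for KMT2C siRNA2 against siRNA1 and siRNA3 0 to 6, for KMT2C against KMT2D siRNA 3 to 9, for the lines 22 to 26, 15 to 21 and 18 to 23, and for both tests between lines 0 to 0. The single library behind the upper end for KMT2C siRNA1 was COLO357 KMT2D siRNA1. Without all PANC1 libraries the counts were 2 for KMT2D siRNA1, 5 for KMT2D siRNA2, 1 for KMT2C siRNA2, 0 for KMT2C siRNA3 (8 at an unadjusted p under 0.05), 9 between the KMT2D siRNAs, 0 for KMT2C siRNA2 against the others (4 unadjusted) and 3 between targets. Without all SUIT2 libraries they were 2, 4 and 3 for KMT2D siRNA1, KMT2D siRNA2 and KMT2C siRNA2, 8 between the KMT2D siRNAs, 1 for KMT2C siRNA2 against the others and 3 between targets. Without all COLO357 libraries they were 2 for KMT2C siRNA1, 16 for KMT2C siRNA2, 12 for KMT2C siRNA2 against the others and 12 between targets. Without the 3 libraries over 20% in no annotated feature they were 1 for KMT2C siRNA2, 0 for KMT2C siRNA3 (1 unadjusted), 0 for KMT2C siRNA2 against the others (10 unadjusted) and 3 between targets. With no filter on low counts they were 3 for KMT2C siRNA1, 2 for KMT2C siRNA3, 9 for KMT2C siRNA2 against the others and 11 between targets, and DESeq2 gave 8 for KMT2C siRNA2 against the others. Leaving out libraries leaves fewer samples to the test; other causes were not tested. The members' median for KMT2C siRNA2 against the others was -0.10 without PANC1, -0.56 without COLO357 and -0.43 to -0.13 without single libraries. That between targets was 0.02 without the libraries high in no annotated feature and -0.18 to 0.03 without single libraries, the last without COLO357 KMT2D siRNA2. The test between lines could not be fitted without a line's control library. Low counts limit ELOVL6 in PANC1, CYP51A1 and INSIG2.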
